A study of Mus musculus with 7 samples.

Results

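Genes of hepatic stellate cells and of the extracellular matrix were examined in the livers of adult Trpm6-deficient mice. The list held 40 genes, grouped by role into contractile and cytoskeletal genes (7), collagens (10), matrix glycoproteins, proteoglycans and elastic fibre genes (10), matrix remodelling genes (8), and signalling and stellate identity genes (5). Of these, 38 were measured, each by 1 probe set. Fbn1 had no probe set under its symbol in the array annotation used, and the probe set of Loxl2 was annotated to more than 1 gene. The whole array held 35556 probe sets and 19938 genes with a probe set annotated to that gene alone.

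The Trpm6-deficient group (n = 3) carried Trpm6 Δ17/Δ17;Sox2-Cre, that is, both Trpm6 alleles without exon 17, with 1 of them removed by a Cre recombinase driven by the Sox2 promoter. This Cre, inherited from the father, acts in the epiblast, which gives rise to the embryo but not to extraembryonic tissue, so the deletion reaches the whole animal and is not limited to the liver. The control group (n = 4) carried Trpm6 fl/+, with 1 floxed and 1 wild-type allele and no Cre, so an effect of the Cre transgene itself cannot be told apart from that of the Trpm6 deletion. All animals were male C57BL/6 littermates aged 12 or 13 weeks, and a fragment of the left liver lobe of each was hybridised to an Affymetrix Mouse Gene 1.0 ST array. Livers are numbered as labelled (Trpm6-deficient 1 to 3, control 1 to 4), and all values are log2 expression values after robust multi-array averaging (RMA). The median of the arrays lay between 6.43 and 6.48 and the lower quartile between 5.05 and 5.11. The deposited values carry no detection calls, so no value is known to be above background. Trpm6 itself averaged 5.46 ± 0.08 in Trpm6-deficient livers and 5.51 ± 0.01 in control livers (SD, n = 3 and 4; limma adjusted p = 0.88), near that lower quartile, and did not serve to check the genotypes.

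Hepatic stellate cells lie between hepatocytes and the sinusoidal endothelium and store vitamin A as retinyl esters. After liver injury, under signals such as TGF-β and PDGF, they can become myofibroblasts, which gain contractile proteins, secrete fibrillar collagens and express inhibitors of matrix-degrading enzymes. Contractile proteins also mark the smooth muscle of hepatic vessels, and collagens are made by portal fibroblasts as well, so none of these genes belongs to stellate cells alone.

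No gene of the list passed the study's threshold, an adjusted p of 0.1 or less in limma (0 of 38; 0.129% of all probe sets passed it, 46 in number). At a nominal threshold, an unadjusted limma p of 0.05 or less, 6 of 38 genes (15.8%) were higher in Trpm6-deficient livers, where 3.59% of all 19938 genes were. These were Acta2, Myl9, Des, Thbs1, Mmp14 and Reln. None was lower at that level, against 3.43% of all genes. For Mmp14 and Reln the 3 Trpm6-deficient livers lay above all 4 control livers (2 of 38 genes), a pattern met by 2.78% of all genes, and no listed gene had all Trpm6-deficient livers below all controls (2.78% of all genes). The median log2 change, Trpm6-deficient minus control, was 0.04 over the 38 genes and -0.01 over all genes. A positive change was found in 24 of the 38 genes and in 9477 of all 19938. Every difference given below from all 7 livers is therefore an estimate that did not survive correction over the array. In bulk tissue, a higher level from more cells of a type and one from more RNA per cell cannot be told apart.

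**Figure D1:**
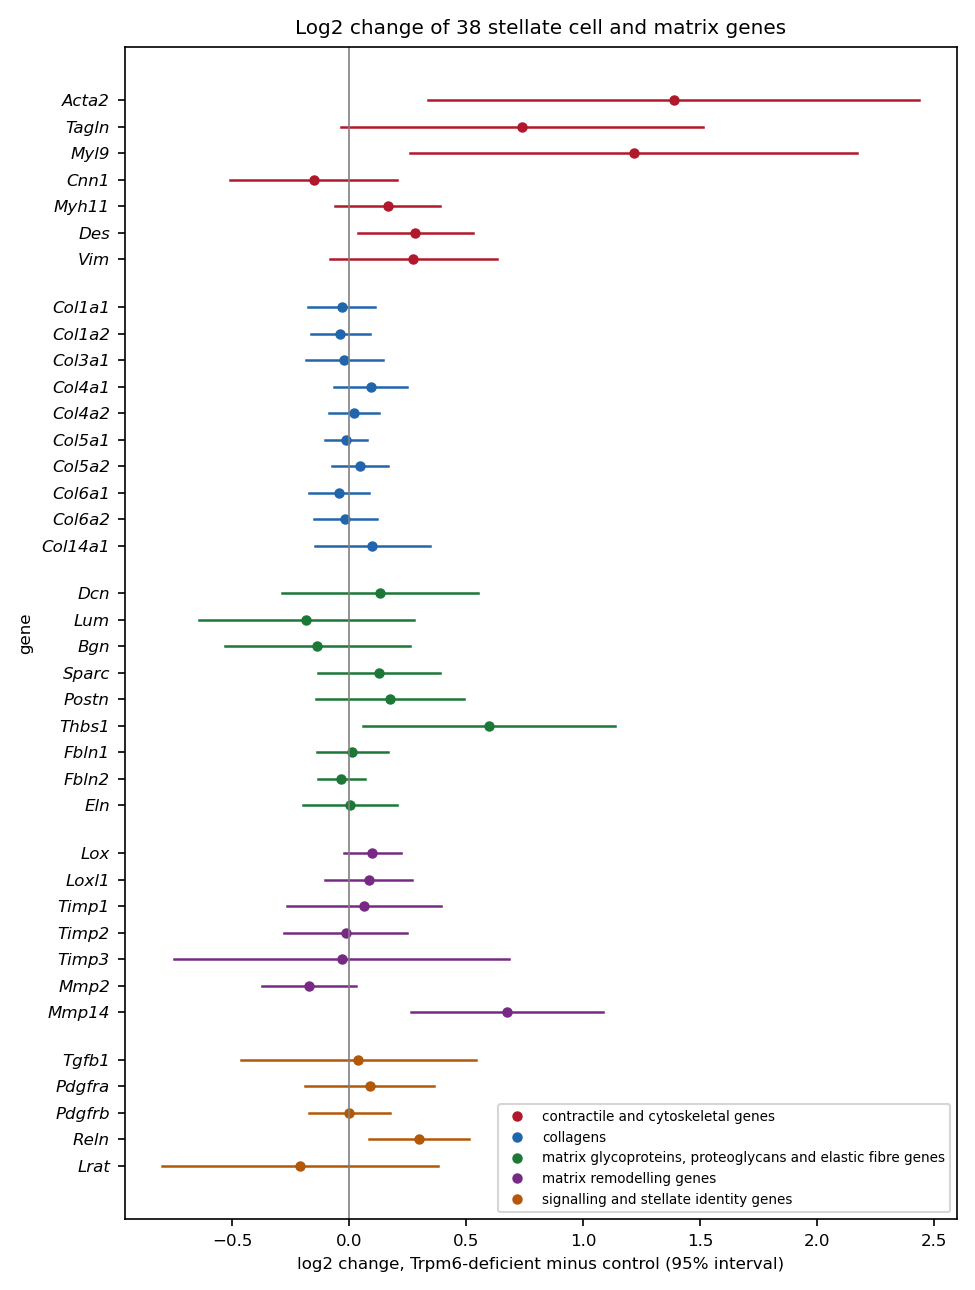
Log2 change (Trpm6-deficient minus control, horizontal axis) of each of the 38 measured genes, grouped and coloured by role; points are limma estimates and lines their 95% intervals. Acta2 at 1.39 and Myl9 at 1.22 stand farthest to the right, while the 10 collagens lie between -0.04 and 0.10.

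Contractile and cytoskeletal genes held the largest estimated differences. Acta2 encodes α-smooth muscle actin, the usual marker of stellate cell activation. Its log2 value was 8.03, 9.42 and 9.95 in Trpm6-deficient livers 1, 2 and 3, against 7.75, 8.03, 7.63 and 7.58 in control livers 1 to 4. Trpm6-deficient livers 2 and 3 were well above every control, and Trpm6-deficient liver 1 equalled the highest one. The mean log2 change was 1.39 (SE 0.44, 95% interval 0.34 to 2.44), a fold of 2.61 (limma adjusted p = 0.62). Without Trpm6-deficient liver 1 the change was 1.94 and passed the threshold (adjusted p = 0.080), while over all alternatives its adjusted p ranged from 0.080 to 0.88. Other actin genes with closely similar sequences had smaller estimates, none past the nominal threshold: Acta1, skeletal α-actin, had a log2 change of 0.00 (95% interval -0.22 to 0.21), Actc1, cardiac α-actin, 0.03 (-0.08 to 0.13) and Actg2, enteric γ-actin, 0.18 (-0.01 to 0.36).

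Myl9 encodes the regulatory light chain of smooth muscle myosin. It was at 7.32, 8.49 and 9.07 in Trpm6-deficient livers 1 to 3, against 7.03, 7.34, 6.82 and 7.12 in control livers 1 to 4. The livers stood in nearly the same arrangement as for Acta2, with Trpm6-deficient liver 1 inside the control range. The log2 change was 1.22 (SE 0.40, fold 2.32, limma adjusted p = 0.64). Tagln, transgelin, an actin-binding protein of smooth muscle, was at 6.88, 7.67 and 8.28 in Trpm6-deficient livers, against 6.67, 7.06, 6.70 and 7.06 in controls. Here too only Trpm6-deficient livers 2 and 3 exceeded the controls, and the change of 0.74 (SE 0.32) missed the nominal threshold (limma adjusted p = 0.76).

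Intermediate filament genes were higher by less. Des encodes desmin, found in stellate cells and muscle, and had log2 values of 7.49, 7.85 and 7.77 in Trpm6-deficient livers, against 7.41, 7.56, 7.36 and 7.35 in control livers. The groups overlapped through Trpm6-deficient liver 1 and control liver 2, and the change was 0.28 (SE 0.10, limma adjusted p = 0.67). Vim, vimentin, the filament of mesenchymal cells, averaged 10.49 ± 0.30 in Trpm6-deficient and 10.22 ± 0.13 in control livers (SD, n = 3 and 4), a change of 0.27 (95% interval -0.08 to 0.63). It was at 10.16, 10.60 and 10.72 in Trpm6-deficient livers, against 10.08, 10.33, 10.34 and 10.13 in controls, and Trpm6-deficient liver 1 again lay among the controls.

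The genes most restricted to differentiated smooth muscle did not pass the nominal threshold. Myh11, the smooth muscle myosin heavy chain, was at 6.71, 6.64 and 6.77 in Trpm6-deficient livers, against 6.62, 6.64, 6.60 and 6.31 in controls. The change was 0.16 (95% interval -0.06 to 0.39), and without the low control liver 4 it was 0.09. Cnn1, calponin, a regulator of smooth muscle contraction, was at 5.52, 5.61 and 5.65 in Trpm6-deficient livers, against 5.82, 5.35, 5.97 and 5.84 in controls, with a change of -0.15 (95% interval -0.51 to 0.21). Without control liver 2 this estimate was -0.28 (limma adjusted p = 0.63) and passed the nominal threshold, so the sign of Cnn1 was opposite to that of Acta2 in either case.

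As a group, 6 of the 7 contractile and cytoskeletal genes had a positive change and their median was 0.28. The mean shift of the 7 genes from the control mean was 0.07, 0.67 and 0.94 in Trpm6-deficient livers 1, 2 and 3, and ran between -0.04 and 0.10 in the controls. The mean shift was thus carried by 2 of the 3 Trpm6-deficient animals, as were the changes of Acta2, Myl9, Tagln, Des and Vim. Myh11 did not share this, with differences from the control mean of 0.17, 0.10 and 0.23 in Trpm6-deficient livers 1 to 3. Cnn1 lay below the control mean in all 3. By age, Trpm6-deficient liver 2 and control livers 1 and 2 came from animals of 12 weeks and the others from animals of 13 weeks. The log2 difference of Acta2 was 1.53 at 12 weeks, from 1 Trpm6-deficient animal, and 1.39 at 13 weeks, the mean of 2 that were far apart, so consistency across ages cannot be judged.

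**Figure D2:**
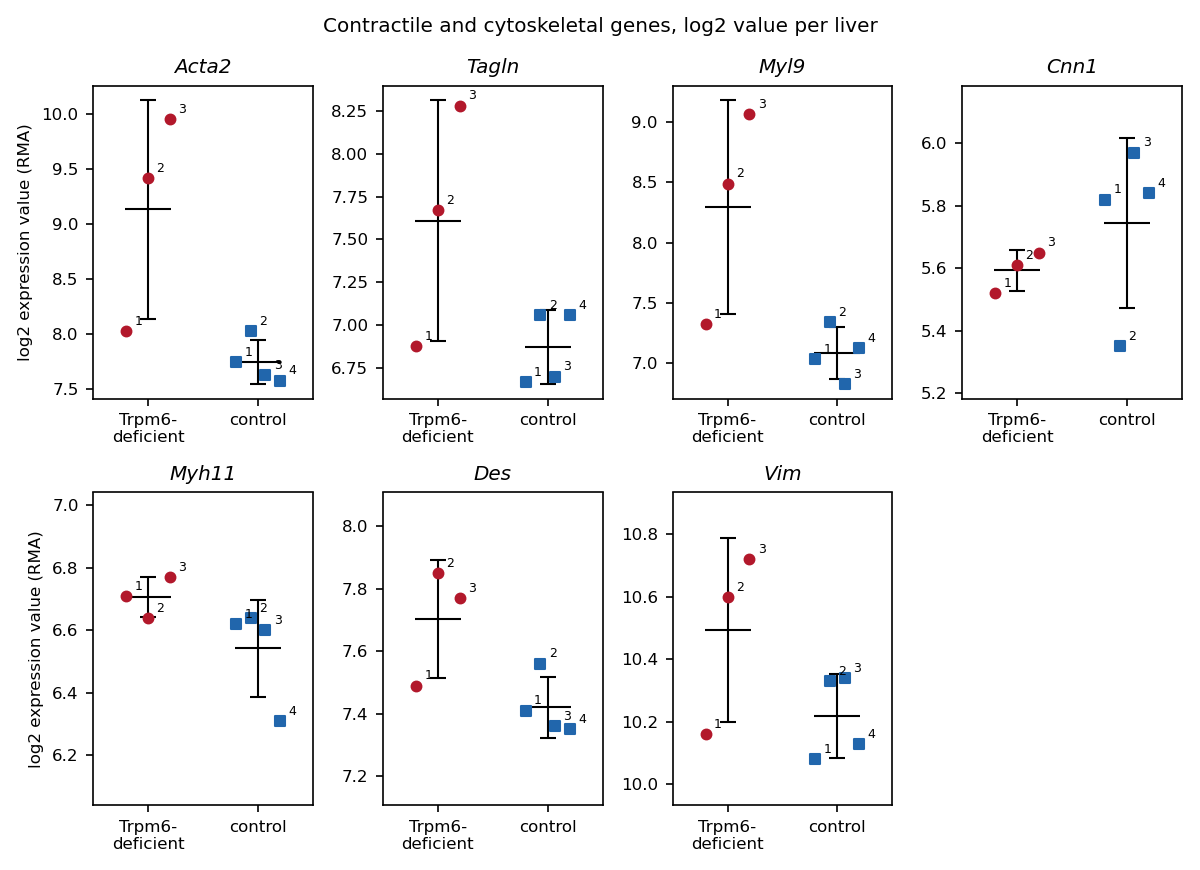
Log2 expression value per liver (vertical axis, scaled separately in each panel) for the 7 contractile and cytoskeletal genes, with Trpm6-deficient livers as circles on the left and control livers as squares on the right; digits are the liver numbers, horizontal bars the mean and error bars the SD. In Acta2, Myl9 and Tagln, Trpm6-deficient livers 2 and 3 stand above all controls while Trpm6-deficient liver 1 lies within or at the edge of the control range.

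Many smooth muscle genes carry a CArG box, the DNA element bound by serum response factor (SRF), near their start. The promoters of the listed genes were therefore searched in RefSeq sequence (mouse build GRCm38.p6, 250 bases before to 50 bases after the start of transcription). The box was defined as CC, 6 letters that are A or T with at most 1 exception, and GG, a pattern that reads the same way on both strands. Other measured genes, among them Tagln, Myh11 and Thbs1, had no promoter sequence, so 5 of the 7 contractile and cytoskeletal genes were searched. The box occurred in 7 of the 25 measured genes with a promoter sequence (Acta2, Myl9, Mmp14, Lrat, Col1a2, Fbln2 and Timp3) and in 9.98% of all 32851 promoters. The first count is of genes and the second of promoters. Postn, Col6a2 and Fbln1 had more than 1 promoter, none with a box. Acta2, Myl9 and Timp3 held 2 each, as did 0.822% of all promoters with 2 or more. The promoters of the 3 genes with the largest estimated changes among those searched are shown 5′ to 3′ on the coding strand, with boxes in capitals.
Acta2: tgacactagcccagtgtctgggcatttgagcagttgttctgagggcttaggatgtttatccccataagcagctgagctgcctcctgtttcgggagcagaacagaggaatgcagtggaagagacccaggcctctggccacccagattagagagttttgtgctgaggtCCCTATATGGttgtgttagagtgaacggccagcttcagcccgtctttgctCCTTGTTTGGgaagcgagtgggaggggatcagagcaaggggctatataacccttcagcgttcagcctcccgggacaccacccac
Myl9: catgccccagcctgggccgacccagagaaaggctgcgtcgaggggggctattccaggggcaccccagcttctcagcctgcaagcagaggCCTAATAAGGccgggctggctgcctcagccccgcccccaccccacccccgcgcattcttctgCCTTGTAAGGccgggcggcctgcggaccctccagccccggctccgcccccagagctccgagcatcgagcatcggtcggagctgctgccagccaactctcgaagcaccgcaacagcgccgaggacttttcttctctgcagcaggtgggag
Mmp14: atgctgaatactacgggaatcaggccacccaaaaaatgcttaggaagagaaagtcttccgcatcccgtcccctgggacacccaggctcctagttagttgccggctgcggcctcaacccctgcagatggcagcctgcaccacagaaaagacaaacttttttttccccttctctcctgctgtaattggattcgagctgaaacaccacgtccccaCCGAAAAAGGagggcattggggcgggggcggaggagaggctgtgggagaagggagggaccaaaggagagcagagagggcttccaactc
The Acta2 window lies at chr19:34255324-34255623 on the minus strand, and its boxes begin 84 and 34 bases before the start. The Myl9 window lies at chr2:156775214-156775513 on the plus strand, with boxes beginning 161 and 99 bases before the start, of which the first has A or T at all 6 inner positions. The Mmp14 window lies at chr14:54431348-54431647 on the plus strand, with its box 38 bases before the start. Timp3, with 2 boxes, had a change of -0.03, and Des, with a change of 0.28, had none in its window. These are matches of letters, binding was not measured, and no relation of boxes to changes was tested.

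Of further smooth muscle contractile genes, 19 measured of 20 listed, 0 passed the nominal threshold. By it 3.59% of all genes were higher and 3.43% lower. A positive change was found in 13 of the 19, and their median was 0.06. The changes ran from -0.22 for Itga8 to 0.47 for Flna (95% interval -0.02 to 0.96). Myl6, the essential myosin light chain, had 6 probe sets. The brightest was at 12.08 in all 3 Trpm6-deficient livers, against 11.94 to 12.25 in controls. Cald1, caldesmon, an actin-binding regulator, had a change of 0.02. The list's mean shift was -0.02, 0.14 and 0.24 in Trpm6-deficient livers 1, 2 and 3, the same order of animals as for the contractile genes, against -0.03 to 0.05 in controls. Among 14 genes of SRF, its coactivators, YAP and their targets, 1 was higher (7.14%, against 3.59% of all genes) and none lower by the nominal threshold. This was Ctgf, connective tissue growth factor, a secreted matricellular protein, at 9.88, 9.28 and 9.81 in Trpm6-deficient livers, against 9.27, 9.16, 9.33 and 9.0 in controls (change 0.47, SE 0.16, limma adjusted p = 0.66). Its animals were ordered otherwise than for Acta2, with Trpm6-deficient liver 1 the highest. Srf itself had a change of 0.12 (95% interval -0.27 to 0.52).

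Collagens did not differ detectably. The changes of the 10 genes lay between -0.04 and 0.10, 4 were positive, and the median was -0.015. The nominal threshold was passed by 0 of them, where 3.59% of all genes were higher and 3.43% lower. Col1a1, which encodes the α1 chain of type I collagen, the main fibrillar collagen of scar, was at 7.92, 7.93 and 7.95 in Trpm6-deficient livers, against 8.06, 7.85, 8.0 and 7.95 in controls. The change was -0.03 with a 95% interval of -0.17 to 0.11. Col3a1, the fibrillar collagen that accompanies type I, was at 7.67, 7.65 and 7.65 in Trpm6-deficient livers, against 7.84, 7.65, 7.61 and 7.61 in controls, with a change of -0.02 (95% interval -0.18 to 0.14). All Trpm6-deficient values of both genes fell within the range of the controls.

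The remaining collagens had similarly small changes. Col1a2, the α2 chain of type I collagen, had a change of -0.04 (95% interval -0.16 to 0.09) and Col4a1, of the basement membrane, 0.09 (-0.06 to 0.25). The partner chain Col4a2 had a change of 0.02. Col5a1 and Col5a2, which take part in the assembly of collagen fibrils, had changes of -0.01 and 0.05. Col5a2 was at 6.35, 6.37 and 6.37 in Trpm6-deficient livers, against 6.35, 6.22, 6.35 and 6.35 in controls, with only control liver 2 apart. The changes of Col6a1 and Col6a2, of microfibrillar type VI collagen, were -0.04 and -0.02. Col14a1, a fibril-associated collagen, had the largest change of the group, 0.10 (95% interval -0.15 to 0.35), with values of 9.87, 9.58 and 9.50 in Trpm6-deficient livers, against 9.43, 9.65, 9.58 and 9.54 in controls. Only Trpm6-deficient liver 1, the animal with the lowest Acta2 of its group, exceeded the controls. Several collagen probe sets repeated the same value across arrays. In 5 of 10 collagens at least 4 of the 7 livers shared 1 value to the deposited 2 decimals, as in Col5a1, at 7.28 in Trpm6-deficient liver 2 and 7.32 in the other 6 livers, compared with 21.4% of all genes. How far such probe sets can register a change was not tested.

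Matrix glycoproteins, proteoglycans and elastic fibre genes had a median change of 0.01 over the 9 measured. Thbs1 alone passed the nominal threshold. It encodes thrombospondin 1, a secreted glycoprotein that can activate latent TGF-β. It was at 6.98, 7.6 and 7.85 in Trpm6-deficient livers, against 7.02, 7.06, 6.59 and 6.84 in controls. Trpm6-deficient livers 2 and 3 were again the ones above all controls. The change was 0.60 (SE 0.22, fold 1.51, limma adjusted p = 0.69).

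Among the proteoglycans, the spread within each group exceeded the difference between the groups. Dcn, decorin, a small proteoglycan that binds collagen fibrils, was at 12.30, 12.94 and 12.53 in Trpm6-deficient livers, against 12.19, 12.59, 12.60 and 12.45 in controls (change 0.13, 95% interval -0.29 to 0.55). Lum, lumican, of the same family, was at 7.02, 7.57 and 6.92 in Trpm6-deficient livers, against 7.6, 7.46, 7.24 and 7.11 in controls (change -0.18, 95% interval -0.64 to 0.28). For both genes the groups overlapped and the highest Trpm6-deficient value was that of liver 2. Bgn, biglycan, averaged 11.34 ± 0.25 in Trpm6-deficient and 11.48 ± 0.23 in control livers (SD, n = 3 and 4). Postn, periostin, a matricellular protein of remodelling tissue, had a change of 0.17 (95% interval -0.14 to 0.49), with 1 high value, 8.59, in Trpm6-deficient liver 3. Sparc, a collagen-binding matricellular protein, had a change of 0.13 and repeated 10.98 in 5 livers. Fbln1 and Fbln2, fibulins of the elastic fibre and basement membrane, had changes of 0.01 and -0.03. Fbln1 was at 6.77, 6.75 and 6.77 in Trpm6-deficient livers, against 6.77, 6.61, 6.84 and 6.78 in controls. Eln, elastin, was at 6.97, 6.83 and 7.04 in Trpm6-deficient livers, against 6.97, 6.78, 7.05 and 6.97 in controls, a change of 0.00 (95% interval -0.20 to 0.21). The values of both fell inside the control range.

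Matrix remodelling genes had a median change of 0.07 over the 7 measured, and 1 of them, Mmp14, had the smallest p of the 38. Mmp14 encodes a membrane-bound matrix metalloproteinase that cleaves collagen and activates pro-MMP2. It was at 8.89, 9.01 and 9.43 in Trpm6-deficient livers, against 8.50, 8.21, 8.32 and 8.71 in control livers. The 3 Trpm6-deficient livers were all above the 4 controls, liver 1 included. The change was 0.68 (SE 0.17, 95% interval 0.27 to 1.08), a fold of 1.60, with a limma adjusted p of 0.46. It passed the nominal threshold in all 15 alternatives tried, which reuse the same livers and of which some leave the estimate unchanged.

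Mmp2, the gelatinase that MMP14 activates, was at 7.59, 7.51 and 7.32 in Trpm6-deficient livers, against 7.59, 7.78, 7.62 and 7.59 in controls. None of the Trpm6-deficient livers exceeded the lowest control, which Trpm6-deficient liver 1 equalled, and the change was -0.17 (95% interval -0.37 to 0.03). The point estimates of the protease and of its substrate thus had opposite signs. Timp1, an inhibitor of metalloproteinases that activated stellate cells secrete, was at 5.33, 5.57 and 5.27 in Trpm6-deficient livers, against 5.17, 5.17, 5.63 and 5.33 in controls. Its groups overlapped throughout (change 0.07, 95% interval -0.26 to 0.39), at values not far above the lower quartile of the arrays. Timp2, of the same family, was at 8.17, 8.23 and 7.96 in Trpm6-deficient livers, against 7.98, 8.23, 8.31 and 8.02 in controls (95% interval -0.28 to 0.25), again with full overlap.

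Timp3, the inhibitor that stays bound to the matrix, was at 8.35, 8.58 and 8.73 in Trpm6-deficient livers, against 7.78, 8.89, 8.95 and 8.72 in controls. Control liver 1 was far below the other controls, and without it the change was -0.30 (limma adjusted p = 0.79) in place of -0.03. Lox, lysyl oxidase, which cross-links collagen and elastin, was at 5.33, 5.47 and 5.40 in Trpm6-deficient livers, against 5.33, 5.33, 5.26 and 5.28 in controls (change 0.10, 95% interval -0.02 to 0.22). Loxl1, a related oxidase of elastic fibres, had a change of 0.08 (95% interval -0.10 to 0.27).

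Signalling and stellate identity genes had a median change of 0.04 over 5. Reln encodes reelin, an extracellular glycoprotein that in the liver is made by stellate cells. It was at 9.84, 9.90 and 9.74 in Trpm6-deficient livers, against 9.53, 9.65, 9.33 and 9.60 in controls. The groups did not overlap, and the 3 Trpm6-deficient livers were close to each other, unlike for Acta2. The change was 0.30 (SE 0.09, fold 1.23, limma adjusted p = 0.59).

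Lrat encodes the acyltransferase that forms retinyl esters in quiescent stellate cells. It was at 9.74, 9.55 and 9.49 in Trpm6-deficient livers, against 9.17, 10.17, 10.08 and 9.79 in controls. The Trpm6-deficient values lay between the low control liver 1 and the other 3 controls, and the change was -0.21 (95% interval -0.80 to 0.38). Without control liver 1 it was -0.42 and passed the nominal threshold (limma adjusted p = 0.67). The sign of the estimate was thus opposite for these stellate cell genes, negative for Lrat and positive for Reln. Tgfb1, the ligand TGF-β1, was at 7.58, 8.14 and 7.95 in Trpm6-deficient livers, against 7.39, 7.94, 8.12 and 7.95 in controls (change 0.04, 95% interval -0.46 to 0.54). Pdgfrb, the PDGF receptor β that stellate cells carry, was at 8.0, 8.09 and 7.94 in Trpm6-deficient livers, against 7.87, 8.09, 8.08 and 8.0 in controls, and its mean was 8.01 in both groups. Pdgfra, the receptor α, was at 7.54, 7.26 and 7.16 in Trpm6-deficient livers, against 7.26, 7.36, 7.26 and 7.05 in controls (change 0.09, 95% interval -0.19 to 0.36), and only Trpm6-deficient liver 1 exceeded the controls.

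**Figure D3:**
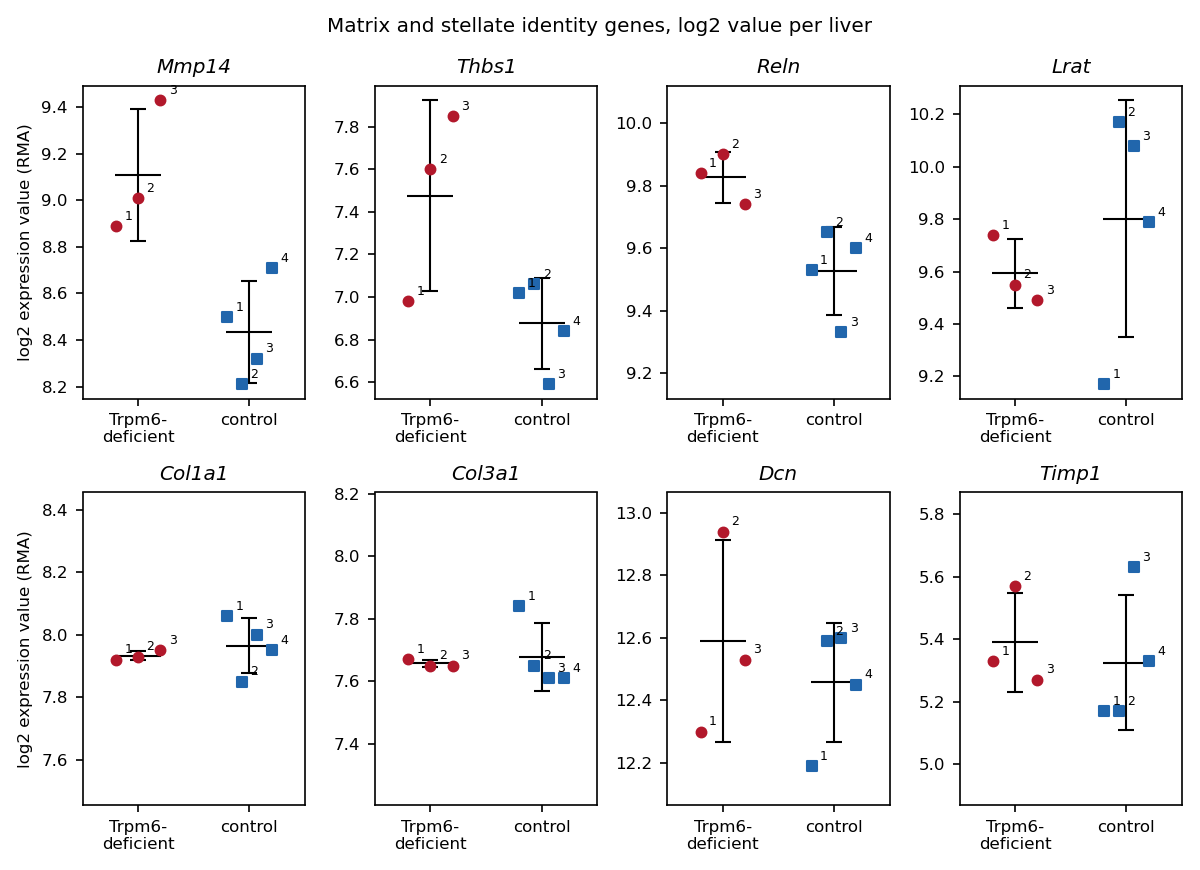
Log2 expression value per liver (vertical axis, scaled separately in each panel) for 8 matrix, remodelling and stellate identity genes, with Trpm6-deficient livers as circles on the left and control livers as squares on the right; digits are liver numbers, horizontal bars the mean and error bars the SD. The groups are apart in Mmp14 and Reln, overlap in Col1a1, Col3a1, Dcn and Timp1, and in Lrat control liver 1 lies below all other livers.

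A wider list of TGF-β and PDGF pathway genes, 24 measured of 25, had a median change of 0.00, with 1 gene higher and 0 lower by the nominal threshold, a share of 4.17% that is near the 3.59% of all genes. That gene was Ski, a repressor of SMAD signalling, at 9.27, 9.51 and 9.70 in Trpm6-deficient livers, against 9.0, 9.15, 9.09 and 9.22 in controls. All 3 Trpm6-deficient livers were above the controls (change 0.38, SE 0.11, limma adjusted p = 0.58), a pattern met by 2.78% of all genes. Of 44 further matrix genes measured among 46, 4 (9.09%) were higher by that threshold and 2 lower, against 3.59% and 3.43% of all genes. The median of the 44 was 0.03. Loxl4, another lysyl oxidase family member, was at 7.92, 8.31 and 7.63 in Trpm6-deficient livers by the brighter of its 2 probe sets. Controls were at 7.33, 7.30, 6.23 and 7.21 (change 0.94, SE 0.31, limma adjusted p = 0.65). Its groups did not overlap, and control liver 3 was far below the rest. Of the 44, 1 gene was higher and 1 lower without overlap, against 2.78% of all genes in each direction. Mmp19, a metalloproteinase, had a change of 0.36 (SE 0.12, limma adjusted p = 0.66). Omd, osteomodulin, a small leucine-rich proteoglycan of mineralised tissue, was at 5.54, 4.51 and 4.45 in Trpm6-deficient livers, against 5.56, 6.25, 6.07 and 5.56 in controls (change -1.03, SE 0.32, limma adjusted p = 0.62). Trpm6-deficient livers 2 and 3 were low, below the lower quartile of the arrays, and liver 1 was just under the lowest controls. P4ha2, a prolyl hydroxylase that modifies collagen, had a change of -0.24 (SE 0.08, limma adjusted p = 0.64).

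Markers of the cell types a liver fragment can hold were measured beside these genes. Of 15 quiescent stellate markers, 3 (20.0%, against 3.59% of all genes) were higher and 0 lower by the nominal threshold, with a median of 0.03. Reln and Lrat are counted here as well, and so is Ecm1, which was also among the further matrix genes past that threshold. Besides Reln, the higher markers were Ecm1, a secreted glycoprotein, with a change of 0.42 (limma adjusted p = 0.69), and Bmp10, a BMP family ligand, with 0.39 (limma adjusted p = 0.68). The mean level of the list was 8.40 to 8.49 in Trpm6-deficient and 8.21 to 8.45 in control livers. Vascular smooth muscle markers (9 genes) averaged 6.73 to 6.81 in Trpm6-deficient and 6.64 to 6.74 in control livers, with 0 past the nominal threshold. Portal fibroblast markers (12 genes) averaged 6.85 to 6.98 in Trpm6-deficient and 6.85 to 7.02 in control livers, likewise with 0. By that threshold 3.59% of all genes were higher and 3.43% lower. Myh11 and Cnn1 of the contractile genes recur among the vascular markers, and Fbln2 and Eln of the matrix genes among the portal fibroblast markers. Some other markers of both lists also stood among the further smooth muscle or matrix genes. Where lists share genes, they are not separate evidence. Mylk, the myosin light chain kinase, and Smtn, smoothelin, had changes of -0.04 and 0.17, and Gas6, a secreted ligand of TAM receptors on the portal fibroblast list, 0.11. Skeletal and cardiac muscle markers (13 genes) averaged 6.33 to 6.40 in Trpm6-deficient and 6.26 to 6.39 in control livers, with 0. Tnni2, a fast skeletal troponin, had a change of 0.07. At least 4 of the 7 livers shared 1 value in 44.4% of the vascular and 53.8% of the skeletal and cardiac markers, compared with 21.4% of all genes. As for the collagens, how far such probe sets can register a change was not tested. Krt19, a keratin of bile ducts and mesothelium, stood on both the cholangiocyte (8 genes) and mesothelium (7 genes) lists. It was the 1 gene past that threshold in each (12.5% and 14.3%, against 3.59% of all genes). Its values were 6.84, 7.22 and 7.05 in Trpm6-deficient livers, against 6.82, 6.65, 6.84 and 6.53 in controls (change 0.33, limma adjusted p = 0.67). Cholangiocyte markers averaged 6.40 to 6.52 in Trpm6-deficient and 6.34 to 6.47 in control livers, and mesothelial markers 7.09 to 7.40 in Trpm6-deficient and 6.96 to 7.42 in control livers.

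Other nonparenchymal markers had negative median changes in Trpm6-deficient livers and varied widely within both groups. The median was -0.17 for sinusoidal endothelial markers, of which 0 of 10 had a positive change. It was -0.31 for Kupffer cell and macrophage markers, of which 1 of 11 had. No gene of either list passed the nominal threshold, by which 3.59% of all genes were higher and 3.43% lower. Sinusoidal markers had a mean shift of -0.39, 0.06 and -0.21 in Trpm6-deficient livers 1, 2 and 3, against -0.63, 0.37, 0.09 and 0.17 in control livers 1 to 4. Kupffer cell and macrophage markers were shifted by -0.38, -0.25 and -0.17 in Trpm6-deficient livers, against -0.67, 0.26, 0.30 and 0.12 in controls. Control liver 1 was the lowest on both lists and Trpm6-deficient liver 1 was the next lowest. Among the 38 genes, control liver 1 was also the lowest animal for Lrat, Timp3, Tgfb1, Dcn, Sparc, Pdgfrb, Col14a1, Vim and Tagln. Of these, Lrat and Timp3 had negative changes, Pdgfrb had none, and the others had positive ones. The part of such differences in cell content in the results above was not tested. Leaving out both livers, a choice made after seeing these values, gave a change of 1.94 for Acta2 (limma adjusted p = 0.26), 1.69 for Myl9, 0.81 for Mmp14, 0.29 for Reln, which then missed the nominal threshold, and -0.49 for Lrat. Trpm6-deficient liver 1 was the lowest of its group for Acta2 and Myl9. Without it alone their changes were 1.94 and 1.70, and without control liver 1 alone 1.39 and 1.2. The larger estimates for these genes came with the removal of that Trpm6-deficient liver. As it was the lowest of its group, its removal had to raise them, so they are no separate result. Clec4g and Fcgr2b, receptors of sinusoidal endothelium, had changes of -0.28 and -0.23, and Vsig4 and C1qb, a complement receptor and a complement subunit of Kupffer cells, -0.28 and -0.36. Lymphocyte and neutrophil markers (9 genes) averaged 5.55 to 5.61 in Trpm6-deficient and 5.52 to 5.77 in control livers, near the lower quartile of the arrays, and the T cell genes Cd3e and Cd8a had changes of 0.02 and -0.09. Hepatocyte markers (8 genes) averaged 13.90 to 14.04 in Trpm6-deficient and 13.89 to 14.05 in control livers, with a median change of 0.02, and Alb, albumin, and Trf, transferrin, had changes of 0.015 and 0.10.

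**Figure D4:**
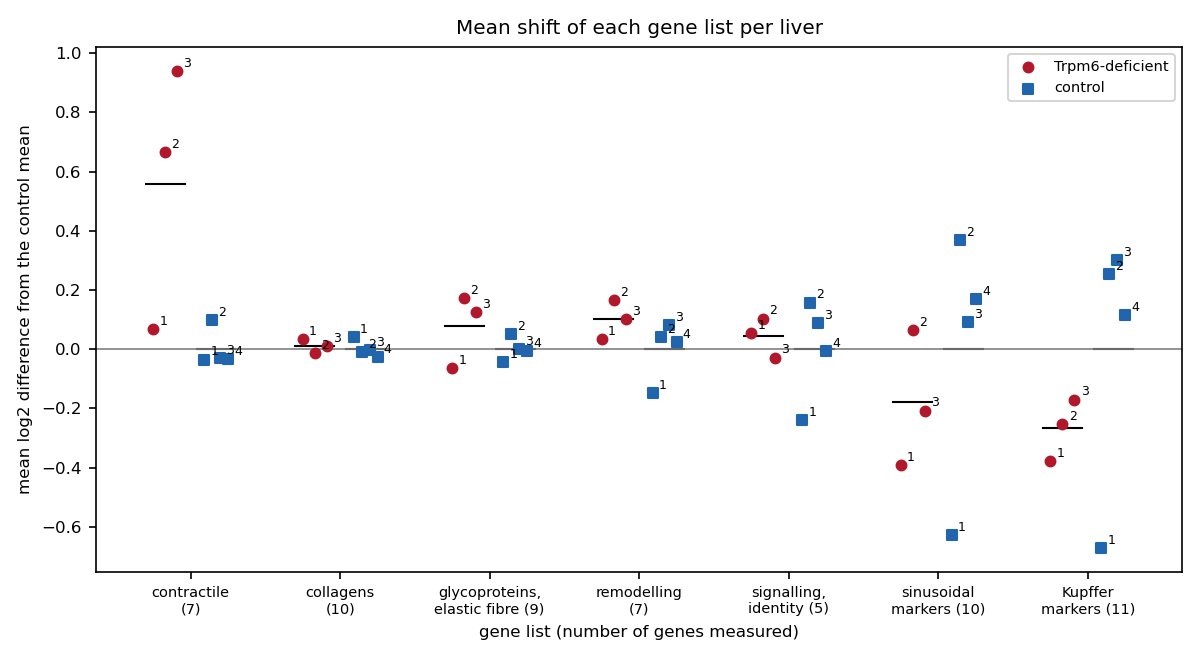
Mean log2 difference from the control mean (vertical axis) over the genes of each list, for each liver: Trpm6-deficient as circles on the left and control as squares on the right of each pair, with liver numbers beside them and horizontal bars for group means. Contractile genes reach 0.67 and 0.94 in Trpm6-deficient livers 2 and 3, collagens stay within 0.04 of 0 in every liver, and control liver 1 is the lowest for sinusoidal and Kupffer markers.

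The counts depended on single animals. Without Trpm6-deficient liver 1, 9 of 38 listed genes (23.7%) were higher by the nominal threshold, including Tagln, Vim and Lox, where 4.21% of all genes were. With these 2 livers against 4, the Trpm6-deficient livers lay above all controls in 10 listed genes (26.3%) and below them in 1 (2.63%), compared with 7.67% and 6.97% of all genes. Without Trpm6-deficient liver 2 or without liver 3, 2 genes were higher by it, Mmp14 and Reln in both cases (5.26%, against 3.02% of all genes without liver 2 and 2.80% without liver 3). Without control liver 3 there were 3, Acta2 being added (7.89%, against 2.79%). Acta2 and Myl9 were above the controls in 2 Trpm6-deficient animals, and Mmp14 and Reln in all 3.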

How the data were processed

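Left lobe RNA of 3 Trpm6-deficient and 4 control male mice was hybridised to Affymetrix Mouse Gene 1.0 ST arrays, 1 per animal. The authors deposited log2 values processed by RMA in Affymetrix Expression Console 1.4.0, rounded to 2 decimals. The array's genome build is not given in the sources used here. RMA normalizes arrays to a common distribution and sums over a gene's probes, so transcript variants are not separated.

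Probe sets were named from the platform annotation: 21789 had 1 gene symbol, 1621 had several and 12146 had none and were not named. The probe set with the highest mean over the 7 arrays stood for a gene. All 35556 probe sets were fitted with limma 3.58.1 (R 4.3.3; lmFit, eBayes, 2 groups, no covariate), with Benjamini-Hochberg adjustment over all of them. Tests were two-sided. The script was tested on simulated data. Alternatives were age as a covariate, the replicate number as a block, each liver left out in turn, quantile normalization or median centring of the values, a minimum mean log2 value of 5, a trended robust prior variance, the mean over a gene's probe sets and an adjusted p of 0.05. Leaving out control 1 with Trpm6-deficient 1 was added after seeing the data.

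The genes, lists and tests were chosen with earlier results of these data known. Values per liver are given for genes at an unadjusted p of 0.05 or less, for the largest and smallest absolute change and the brightest and dimmest gene of each role, and for Acta2, Des, Col1a1, Col3a1, Timp1, Tgfb1, Pdgfrb, Reln and Lrat. For the other lists and markers, up to 4 genes at that level with the smallest p are named, and otherwise the 2 brightest. Actin paralogs, Srf and some further list members were named after their values were seen. The number of arrays limits the precision.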

Additional observations from a re-analysis of the deposited data

Results flagged for a closer look

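For 7 listed genes, 1 of the 4 control livers was far from the others, by the gap to its nearest neighbour as a share of the whole range, beyond Dixon's critical value for 4 samples. Chance exceeds it in about 1 of 20 groups of untied values, but here 20.3% of all genes did, near the 18.4% of the listed genes, and in 11.3% of all genes the other 3 control values were identical, which sets the ratio to 1. The gap as a share of the range was 0.879 for Myh11 (control 4 low), 0.933 for Col6a1 (control 1 high) and 0.842 for Mmp2 (control 2 high). It was 1.0 for Col1a2 (control 1 high), Col5a2 (control 2 low), Sparc (control 1 low) and Fbln2 (control 4 high), in each of which the other 3 control values were identical. The largest of these gaps in log2 units was that of Sparc, at 10.60 in control 1 and 10.98 in the other 3.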

How the results depend on the processing

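Over 15 alternatives, the changes of Acta2, Myl9, Tagln, Des, Thbs1, Mmp14 and Reln kept their sign in all, Acta2 between 0.98 and 1.94. The filter by mean value, the other prior variance and the mean over probe sets cannot change these estimates. The remaining alternatives reuse the same livers, so the count is no independent support. Omitting 1 liver at a time, 0 to 1 genes passed an adjusted p of 0.1, as did 0.0197% to 0.194% of all probe sets. By the nominal threshold 2 to 9 were higher (5.26% to 23.7%, against 2.77% to 4.21% of all genes). By it 0 to 1 were lower (at most 2.63%, against 2.47% to 3.76% of all genes). The groups of 2 to 11 did not overlap. With fewer livers overlap is rarer: the highest of these, without Trpm6-deficient 1, were 10 higher and 1 lower of 38 (26.3% and 2.63%), against 7.67% and 6.97% of all genes. The medians of collagens and remodelling genes then ran between -0.025 and 0.0167 and between -0.025 and 0.10. Leaving out both control 1 and Trpm6-deficient 1 gave 8 higher genes (21.1%, against 3.8% of all genes) and 1 lower (2.63%, against 3.77%) by the nominal threshold. It left 12 without overlap, 10 higher and 2 lower (26.3% and 5.26%, against 8.72% and 9.69%).

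Signs turned for changes near 0. Omitting 1 liver, Timp3 ran between -0.30 and 0.09, Dcn between -0.0425 and 0.2775, Timp1 between -0.03 and 0.17, Tgfb1 between -0.11 and 0.20, and Col3a1 between -0.0433 and 0.0333. Without both livers named, Col1a1 was 0.0067 and Col3a1 0.0267. The cause was not tested.

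With the replicate number as a block, Timp3 was 0.0133 and 0 listed genes passed an adjusted p of 0.1. By the nominal threshold 4 genes (10.5%) were higher, Des, Vim, Mmp14 and Reln, against 4.09% of all genes. None was lower, against 4.29% of all genes. Acta2, Myl9 and Thbs1 thus lost that call and Vim gained it. Acta2, Des and Vim lay almost at the threshold, so little separated a lost call from a gained one there. The labels do not say that numbers pair animals. Correlations of same-numbered livers' deviations were 0.34, 0.26 and 0.09, and Trpm6-deficient 3 correlated best with control 4 (0.23).

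Averaging all probe sets of a gene changed no listed gene's value, as each had 1. Without detection calls, absence of a difference in dim genes such as Lox, Timp1 and Cnn1 is not shown.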
